A study of Mus musculus with 9 samples.

Results

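The proteasome genes described here encode the structural subunits of the 20S core particle and the 19S regulatory particle, and their RNA was compared between WT and Tsc1-/- CD8+ T cells of mice. Members were the genes whose symbol on the array platform begins with Psma, Psmb, Psmc or Psmd followed by a digit, without the catalytic subunits Psmb5 to Psmb10. The search found 32 of the 17097 genes measured. They were 7 genes of the alpha ring, 4 of the beta ring, 8 of the base (5 ATPases and 3 other subunits), 8 of the lid, 2 assembly factors, 2 subunits restricted to other tissues (Psma8 and Psmb11) and Psmc3ip, a recombination protein that shares only the letters of the name. The label therefore fits 27 of the 32 genes as subunits of rings, base and lid. The base ATPase Psmc6 and the assembly factor Psmd10 lacked a named probe set and are not analysed here.

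Each of 9 arrays measured OVA-specific CD8+ T cells sorted by flow cytometry from the spleen 9 days after infection with Listeria monocytogenes, with 12 ng of total RNA per sample. All mice had the C57BL/6 background and carried floxed Tsc1 alleles. The 4 WT samples came from mice without cre, and the 5 Tsc1-/- samples from mice with cre driven by Granzyme B. Deletion should therefore occur only in cells that have switched this effector gene on, and cre and the loss of Tsc1 cannot be told apart. The animals' age is not given in the sources used here, nor is it stated that each sample came from its own animal, so the p-values cover only the spread among samples, which may be technical.

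The proteasome degrades proteins tagged with ubiquitin and supplies the peptides that MHC class I molecules present. Alpha subunits form the outer rings and the gate of the core particle, and beta subunits form the inner rings that hold the catalytic sites. In the regulatory particle, the base unfolds substrates with a ring of ATPases, and the lid removes their ubiquitin. Tsc1 restrains the kinase complex mTORC1. In mouse fibroblasts and other cells, mTORC1 is known to raise proteasome gene expression through Nfe2l1, a transcription factor also called Nrf1, and other work describes mTORC1 as restraining proteolysis by the proteasome.

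Pairs of arrays correlated at 0.987 to 0.991 inside a genotype and at 0.982 to 0.990 across genotypes (Pearson, over probe sets). CD8 T cell markers were bright, with Cd8a at 12.08 in WT and 12.10 in Tsc1-/-, while Cd4 read 6.53 and 6.54. The targeted gene Tsc1 averaged 7.66 (SD 0.09) over the 4 WT arrays and 7.40 (SD 0.09) over the 5 Tsc1-/- arrays, without overlap (adjusted p = 0.114, limma). All levels are log2 values as deposited, and all differences are Tsc1-/- minus WT on that scale. The test was limma over all 17097 genes with Benjamini-Hochberg adjustment, two-sided, and a gene was called where the adjusted p lay under 0.05. No filter on low values was used, so all 32 members were tested.

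The 27 subunits of rings, base and lid all had a positive difference, between 0.12 and 0.43, where 48.2% of all genes did. Their median was 0.25, which corresponds to an RNA level 18.6% above WT, and the median of all genes was -0.01. Only 2 subunits passed the threshold: Psma1 of the alpha ring and Psmd14 of the lid rose, and none fell. Calls of higher genes made up 0.971% of all genes and calls of lower genes 0.31%. In 20 of the 27 subunits every Tsc1-/- array lay above every WT array, which held for 5.08% of all genes, and in the other 7 the groups overlapped. None lay wholly below WT, as 2.88% of all genes did. At an adjusted p under 0.1, 8 of the 27 were higher, against 3.09% of all genes. At an unadjusted p under 0.05, 22 of the 27 were higher and none lower, against 9.83% and 7.34% of all genes. For equally bright genes, the share at this unadjusted p was not computed. The within-genotype SD of single subunits was 0.05 to 0.18, with a median of 0.10, against the median difference of 0.25. The mean over the 27 subunits had a within-genotype SD of 0.045. All 27 were read in the same arrays, so the counts above are not of 27 separate observations.

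**Figure D1:**
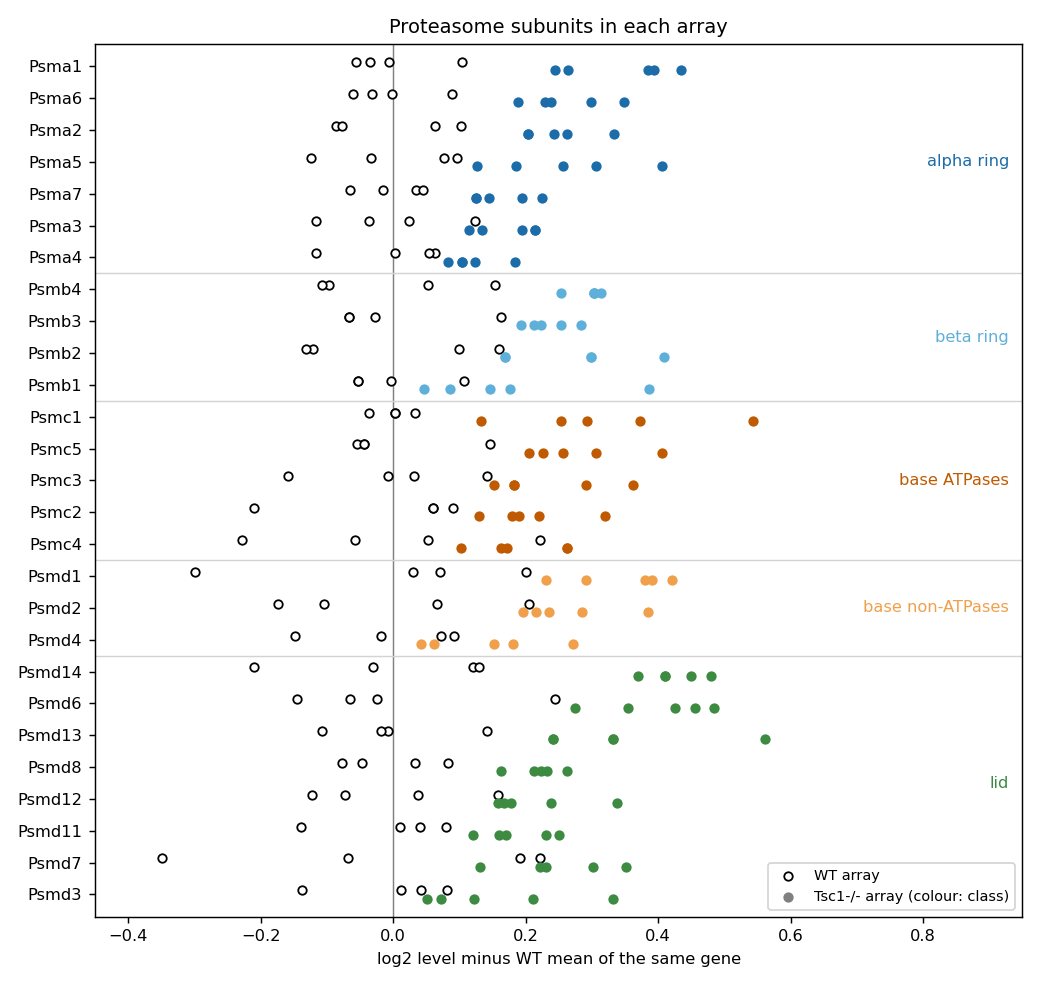
Log2 level of each of the 27 subunits in each array, minus the WT mean of the same gene (x axis), by gene (y axis, grouped by class). Open circles are the 4 WT arrays and filled circles, coloured by class, the 5 Tsc1-/- arrays; the groups are separate in 20 genes and overlap in 7, among them Psmd7, Psmd4 and Psmb1.

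Bright genes as a whole leaned the same way. Of the 4418 genes at or above the level of the dimmest subunit (7.78), 62.7% had a positive difference, with a median of 0.06. Groups did not overlap in the higher direction in 13.3% of them, and 2.33% were called higher. A difference of at least 0.25, the median of the subunits, was seen in 8.37% of all genes and in 15.1% of these brighter ones.

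**Figure D2:**
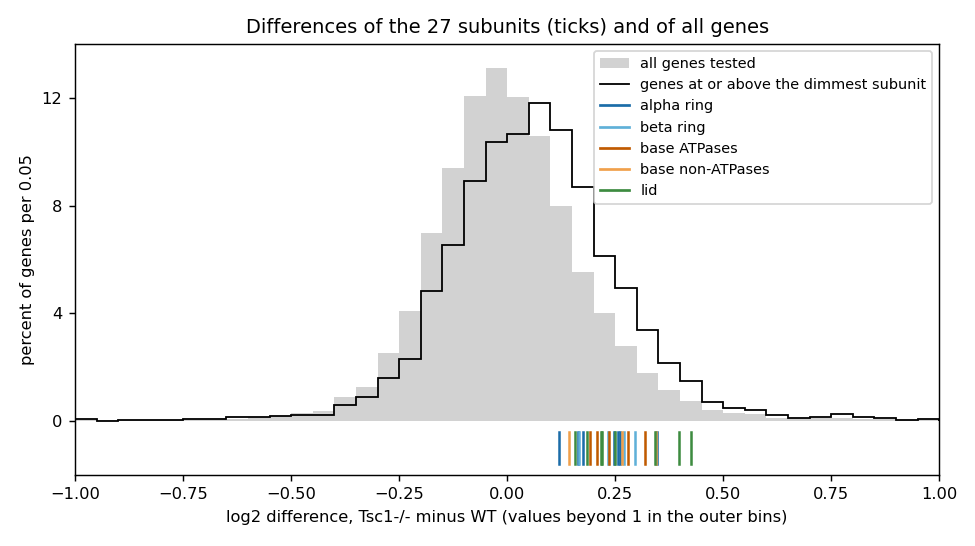
Percent of genes (y axis) by log2 difference between Tsc1-/- and WT in steps of 0.05 (x axis), for all 17097 genes (grey) and the 4418 genes at or above the dimmest subunit (black line). The coloured ticks under the histogram mark the 27 subunits, which lie between 0.12 and 0.43.

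Taken as array means, the 27 subunits averaged 9.27, 9.35, 9.39 and 9.37 in WT replicates 1 to 4. The Tsc1-/- replicates 1 to 5 averaged 9.60, 9.58, 9.55, 9.59 and 9.66. WT replicate 1 was the lowest array and Tsc1-/- replicate 5 the highest, and the gap between the groups was wider than the spread inside either. The median differences were 0.25 for the alpha ring, 0.25 for the beta ring, 0.25 for the base and 0.23 for the lid. Whether these subcomplexes differ from each other was not tested. The 95% interval of each of the 27 subunits held the median of 0.25. That median comes from the same 27 differences, so this is no test of whether they are equal.

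The alpha ring closes the ends of the core particle, and its subunits open a gate when a regulator docks. One of its 7 measured members was called, against 0.971% of all genes. In 6 of the 7 the Tsc1-/- arrays lay wholly above WT. That held for 5.08% of all genes and 13.3% of those at or above the dimmest subunit. Psma1, an alpha ring subunit, read 8.96, 8.93, 9.07 and 8.91 in WT replicates 1 to 4 and 9.36, 9.23, 9.21, 9.35 and 9.40 in Tsc1-/- replicates 1 to 5. All 5 Tsc1-/- arrays lay above the highest WT array. Psma1 rose by 0.35 (SE 0.08, adjusted p = 0.0490, limma), a level 27.2% above WT.

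For Psma6, another subunit of that ring, the WT arrays read 10.15, 10.12, 10.24 and 10.09 and the Tsc1-/- arrays 10.34, 10.38, 10.39, 10.45 and 10.50. The groups were separate, with a difference of 0.26 (SE 0.07, adjusted p = 0.0904, limma). Psma4 had the largest p of the ring and read 9.47, 9.65, 9.64 and 9.59 in WT against 9.67, 9.69, 9.69, 9.71 and 9.77 in Tsc1-/-. The groups did not overlap, but WT replicate 1 stood low and the other WT arrays came close to the Tsc1-/- arrays, with a difference of 0.12 (95% interval -0.04 to 0.28). The other 4 alpha subunits did not pass either. Psma2 differed by 0.25, Psma5 by 0.26, Psma7 by 0.16 and Psma3 by 0.18, with adjusted p between 0.117 and 0.252 (limma). Psma3 was the alpha subunit whose groups overlapped, through 1 WT array.

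The beta ring genes counted here encode subunits that hold no catalytic site. None of the 4 was called, and 3 had groups that did not overlap, against 5.08% of all genes in the higher direction. Psmb4, which takes part in assembly of the beta ring, read 10.61, 10.76, 10.86 and 10.60 in WT and 11.01, 11.02, 10.96, 11.01 and 11.01 in Tsc1-/-. The Tsc1-/- arrays were close together and all above WT, with a difference of 0.30 (SE 0.08, adjusted p = 0.0765, limma). Psmb3 read 11.01, 11.01, 11.05 and 11.24 in WT against 11.33, 11.36, 11.29, 11.27 and 11.30 in Tsc1-/-. WT replicate 4 nearly reached the lowest Tsc1-/- array, and the difference was 0.23 (SE 0.08, adjusted p = 0.139, limma). Psmb2 differed by 0.27 (adjusted p = 0.147, limma), with the highest WT array at 10.41 just under the lowest Tsc1-/- array at 10.42.

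Psmb1 had the largest p of the beta ring, with WT arrays at 9.67, 9.62, 9.62 and 9.78 and Tsc1-/- arrays at 9.72, 9.82, 9.76, 9.85 and 10.06. WT replicate 4 lay above Tsc1-/- replicates 1 and 3, and Tsc1-/- replicate 5 stood highest. The difference was 0.17 (95% interval -0.02 to 0.35).

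The base joins the core particle through a ring of AAA ATPases, Psmc1 to Psmc6, which unfold the substrate and thread it into the core. None of the 5 measured ATPases was called, and 4 had groups that did not overlap, against 5.08% of all genes in the higher direction. Psmc1, an ATPase known for its part in opening the gate, read 9.74, 9.67, 9.71 and 9.71 in WT and 10.25, 10, 9.84, 10.08 and 9.96 in Tsc1-/-. WT arrays were nearly equal and Tsc1-/- arrays spread widely above them, with a difference of 0.32 (SE 0.09, adjusted p = 0.0884, limma). Psmc5 read 8.78, 8.77, 8.97 and 8.78 in WT against 9.23, 9.05, 9.03, 9.08 and 9.13 in Tsc1-/-. Its difference was 0.28 (SE 0.08, adjusted p = 0.0938, limma), and WT replicate 3 alone came near the Tsc1-/- arrays.

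Psmc4 had the largest p among the ATPases, with 10.01, 9.84, 10.12 and 10.29 in WT and 10.33, 10.17, 10.23, 10.24 and 10.33 in Tsc1-/-. WT replicate 4 lay inside the Tsc1-/- range, and the difference was 0.19 (95% interval -0.01 to 0.40). Psmc3 differed by 0.23 and Psmc2 by 0.21, with adjusted p = 0.174 and 0.228 (limma). The difference of Psmc4 turned negative with the macrophage, B cell or mitosis level of the arrays in the fit, at -0.01, -0.02 and -0.11.

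The 3 other base subunits are scaffolds or receptors that take up substrates, and none was called. Psmd1, a scaffold of the base, read 7.56, 8.06, 7.89 and 7.93 in WT and 8.25, 8.28, 8.09, 8.24 and 8.15 in Tsc1-/-. WT replicate 1 was far below the other arrays, and WT replicate 2 came just under the lowest Tsc1-/- array without overlap, with a difference of 0.34 (SE 0.10, adjusted p = 0.106, limma). Psmd2, the other scaffold, which docks proteins that shuttle ubiquitin-tagged substrates, read 8.60, 8.77, 8.53 and 8.91 in WT against 8.99, 8.92, 8.90, 8.94 and 9.09 in Tsc1-/-. WT replicate 4 lay just above the lowest Tsc1-/- array, and the difference was 0.26 (SE 0.09, adjusted p = 0.156, limma).

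Psmd4, a ubiquitin receptor at the junction of base and lid, read 9.43, 9.45, 9.34 and 9.21 in WT and 9.40, 9.51, 9.54, 9.42 and 9.63 in Tsc1-/-. The groups overlapped through WT replicates 1 and 2, and the difference was 0.14 (95% interval -0.04 to 0.32).

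The lid held the subunit with the largest difference of the 27. Psmd14, the lid's deubiquitinase, which cuts ubiquitin chains off substrates as they enter, read 9.36, 9.54, 9.69 and 9.70 in WT and 9.98, 9.98, 10.05, 10.02 and 9.94 in Tsc1-/-. Tsc1-/- arrays lay within a narrow range above all WT arrays, among which replicates 3 and 4 were higher than replicates 1 and 2. It rose by 0.43 (SE 0.09, adjusted p = 0.0375, limma), a level 34.3% above WT.

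Psmd6, a scaffold subunit of the lid, read 8.16, 8.24, 8.28 and 8.55 in WT against 8.79, 8.58, 8.76, 8.66 and 8.73 in Tsc1-/-. WT replicate 4 was just under the lowest Tsc1-/- array, and the difference of 0.40 (SE 0.09) missed the threshold narrowly (adjusted p = 0.0529, limma). Psmd3, also a lid scaffold, had the largest p of the lid, with 7.76, 7.61, 7.83 and 7.79 in WT and 8.08, 7.80, 7.82, 7.87 and 7.96 in Tsc1-/-. Its groups overlapped, and the difference was 0.16 (95% interval -0.03 to 0.34), or -0.02 with the mitosis level in the fit. Of the other 5 lid subunits, Psmd13 differed by 0.34 (adjusted p = 0.0761, limma). Psmd7, the inactive partner that pairs with Psmd14, differed by 0.25, Psmd8 by 0.22, Psmd12 by 0.22 and Psmd11 by 0.19, with adjusted p from 0.133 to 0.286 (limma). Psmd7 had the widest spread between arrays, with an SD of 0.26 in WT and 0.08 in Tsc1-/-.

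**Figure D3:**
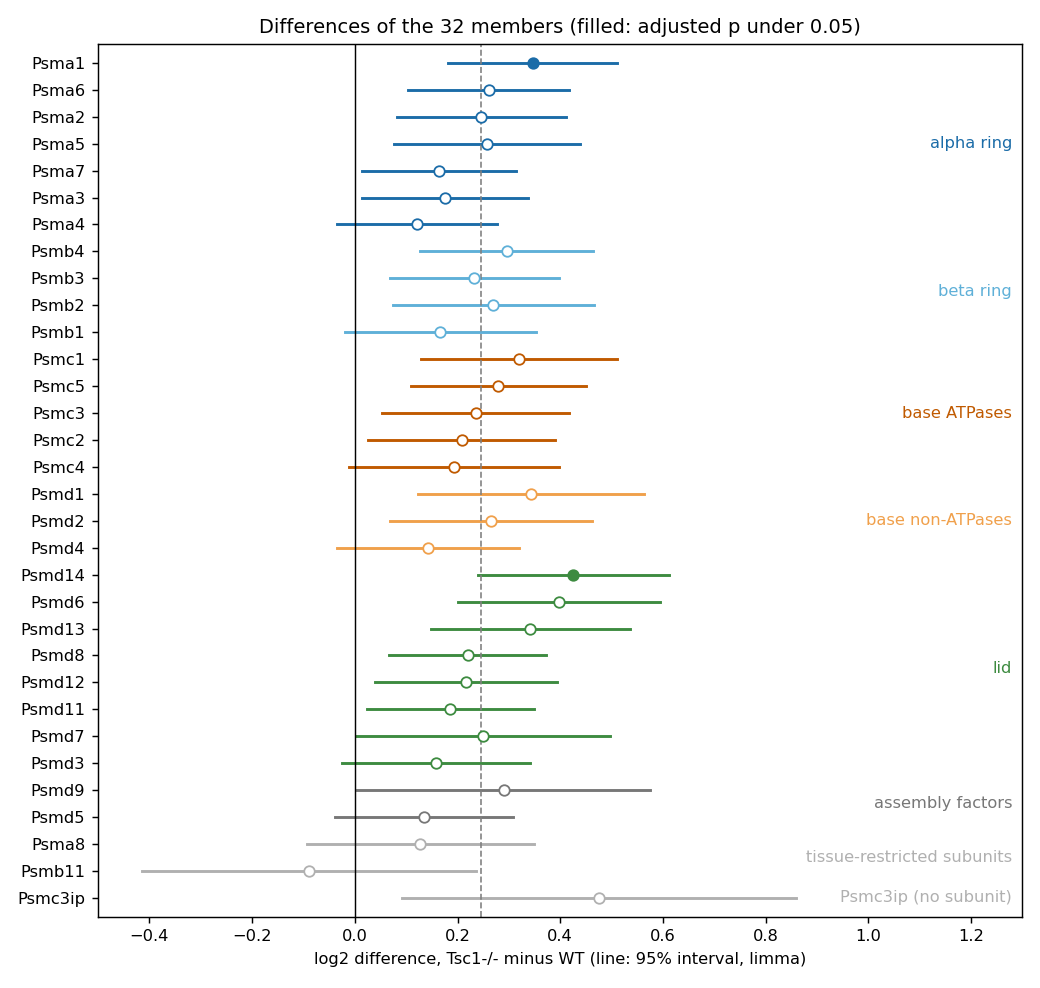
Log2 difference between Tsc1-/- and WT (x axis) of the 32 members (y axis) with its 95% interval from limma, coloured by class. Filled points, Psma1 and Psmd14, passed the threshold. The dashed line marks the median of the 27 subunits at 0.25, taken from these same differences, and every subunit's interval reaches it.

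The remaining 5 members behaved less uniformly, and none was called. Psmd9, a chaperone of base assembly, read 7.98, 8.23, 8.3 and 7.76 in WT and 8.44, 8.24, 8.23, 8.17 and 8.69 in Tsc1-/-. The groups overlapped and the difference was 0.29 (SE 0.13, adjusted p = 0.283, limma). Psmd5, another base chaperone, read 7.89, 8.11, 8.20 and 8.03 in WT and 8.18, 8.20, 8.25, 8.13 and 8.21 in Tsc1-/-, a difference of 0.13 (95% interval -0.04 to 0.31). Psma8, the alpha subunit of the testis, and Psmb11, the catalytic subunit of the thymic cortex, were dim, with means of 5.05 and 5.12. They differed by 0.13 (95% interval -0.09 to 0.35) and -0.09 (95% interval -0.41 to 0.24). Psmc3ip, which acts in homologous recombination and is no part of the proteasome, had overlapping groups and differed by 0.48 (95% interval 0.09 to 0.86, adjusted p = 0.192, limma). Its difference was -0.02 with the mitosis level of the arrays in the fit.

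Some subunits had more than the 1 probe set used above. The 10 subunits concerned had 16 further probe sets, of which 12 differed in the positive and 4 in the negative direction. The 9 at or above the median gene level of 6.34 had a median difference of 0.22, and the 7 below it 0.12. Further bright probe sets gave 0.35 for Psmb3, 0.35 for Psmc4, 0.25 for Psmd6 and 0.24 for Psma7, each with groups that did not overlap. Of the other bright ones, 1 of Psmd4 gave 0.22 with separate groups, and 2 of Psmd11 gave 0.16 and 0.13 with overlapping groups. The further probe sets of Psma1 were dim and differed by -0.07 and 0.02, so its call rests on 1 probe set. Another of Psmd4, at a level of 7.01, differed by -0.18, another of Psmd11 by -0.07 and a dim one of Psmd2 by -0.23. Psmd14 had a single probe set. Outside these counts, further probe sets of the assembly factor Psmd9 differed by 0.09 (level 6.84) and 0.02 (level 5.67), with overlapping groups. With its probe sets averaged, Psmd9 differed by 0.13, against 0.29 for the probe set used above.

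Promoters of the subunits were searched for short motifs. Only TGACNNNGC was part of the written plan, and the other motifs were added to it. RefSeq windows (GRCm38.p6) from 250 bases before to 50 after the gene start were in hand for 22 of the 27 subunits. The motif TGACNNNGC, a form of the antioxidant response element bound by Nfe2l1 and Nfe2l2, was searched on both strands and was present in 1 of the 22 subunits, Psmd12, and in 14% of all 27025 genes with a window. The looser form TGANNNNGC, which contains the first, was in 11 of 22 and in 45% of genes. The motif CGGAAG, the core bound by Ets factors, was in 16 of 22 (2 of 7 alpha ring, 2 of 2 beta ring, 3 of 4 base ATPase, 3 of 3 other base and 6 of 6 lid genes) and in 18.8% of genes, and the longer CCGGAAG in 9 of 22 and 9.93%. The median difference of the 16 subunits with CGGAAG was 0.25 and that of the 6 without 0.25. The shares beside these counts are over all genes with a window, measured here or not. No share among genes as bright as the subunits was computed, so whether a motif is particular to proteasome genes was not tested. A match describes these letters only and shows no binding.

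Of the other motifs, GGGCGG was in 13 of 22 (38.2% of genes), CCAAT in 10 of 22 (41.1%), the palindrome of nuclear respiratory factor 1 in 6 of 22 (7%), CACGTG in 1 of 22 (8.09%) and TGACGTCA in 0 of 22 (2.03%). The windows of Psmd14 and Psmd6 are printed because of the lid genes with values by array and CGGAAG in the window they had the smallest p (limma). That choice was made after their values were seen and required the motif. CGGAAG or its reverse complement CTTCCG is in capitals. The window of Psmd9 is printed because it alone among the members with values by array holds TGACNNNGC, here in capitals.
Psmd14 (GRCm38.p6, chr2:61711444-61711743, + strand): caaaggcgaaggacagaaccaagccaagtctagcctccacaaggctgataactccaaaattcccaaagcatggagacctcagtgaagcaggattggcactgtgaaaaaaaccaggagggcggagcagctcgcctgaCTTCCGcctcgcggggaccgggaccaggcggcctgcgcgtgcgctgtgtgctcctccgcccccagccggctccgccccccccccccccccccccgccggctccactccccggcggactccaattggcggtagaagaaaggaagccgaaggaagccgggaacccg
Psmd6 (GRCm38.p6, chr14:14120896-14121195, - strand): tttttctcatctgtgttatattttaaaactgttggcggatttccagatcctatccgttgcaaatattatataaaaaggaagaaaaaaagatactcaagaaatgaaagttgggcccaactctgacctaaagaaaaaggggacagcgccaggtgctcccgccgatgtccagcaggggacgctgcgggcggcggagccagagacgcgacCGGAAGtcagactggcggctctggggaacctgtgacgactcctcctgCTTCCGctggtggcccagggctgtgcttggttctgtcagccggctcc
Psmd9 (GRCm38.p6, chr5:123227940-123228239, + strand): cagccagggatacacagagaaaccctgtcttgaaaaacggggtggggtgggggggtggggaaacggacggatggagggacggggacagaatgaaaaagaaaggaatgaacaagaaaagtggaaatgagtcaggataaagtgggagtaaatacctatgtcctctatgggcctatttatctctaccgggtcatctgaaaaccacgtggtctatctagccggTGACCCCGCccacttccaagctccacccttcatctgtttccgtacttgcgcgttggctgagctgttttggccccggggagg
The sites begin at base -114 in Psmd14, at -44 and 4 in Psmd6 and at -31 in Psmd9, counted from the gene start, whose first base is 1.

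The catalytic subunits, which the search left out, were all positive. Of the constitutive ones, Psmb6, which cuts after acidic residues, rose by 0.43 (SE 0.07, adjusted p = 0.0314, limma), while Psmb5 differed by 0.44 (adjusted p = 0.0519) and Psmb7 by 0.33 (adjusted p = 0.0696). The immunoproteasome subunits Psmb10, Psmb9 and Psmb8 differed by 0.24, 0.20 and 0.13, and none passed.

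Other genes of the pathway were less uniform. Of the 5 core assembly chaperones none was called. Pomp, which guides beta ring assembly, differed by 0.32 (adjusted p = 0.0534, limma), and Psmg3, a chaperone of alpha ring assembly, by 0.15 (adjusted p = 0.381, limma). Of 11 regulators and associated proteins none was called. The 2 with the smallest p were Sem1, a small lid subunit (0.25, adjusted p = 0.0901, limma), and Psme2, an interferon-inducible activator subunit (0.27, adjusted p = 0.114, limma). Among 5 measured genes of the Nfe2l1 axis none was called. Nfe2l1 differed by 0.18 (95% interval -0.02 to 0.38), and Nfe2l2, the related factor of the oxidative stress response, by 0.69 (SE 0.17, adjusted p = 0.0605, limma) with overlapping groups. For Nfe2l2, Tsc1-/- replicate 1 lay at the WT level of 7.69 while the other 4 Tsc1-/- arrays read 8.48 to 8.62. Nfe2l3, a further member of that family, differed by -0.30 (adjusted p = 0.318, limma). None of the 5 ubiquitin and shuttle genes was called. Ubqln4, a shuttle factor, differed by -0.24 (adjusted p = 0.165, limma) and Ubqln1 by 0.18 (adjusted p = 0.303, limma). Over the 32 genes of these lists that were measured, limma called Psmb6 higher and 0 lower, against 0.971% and 0.31% of all genes. At an unadjusted p under 0.05 the numbers were 9 and 1, against 9.83% and 7.34% of all genes. Catalytic subunits made up 5 of those 9.

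Markers of macrophages and B cells, which a spleen sort can let through, averaged 6.91 and 7.53 in WT and 6.40 and 7.07 in Tsc1-/-. The mean level of 11 measured macrophage and monocyte markers was 6.40 to 7.19 in WT and 6.21 to 6.63 in Tsc1-/-, and all 11 had a negative difference, none of them called. For 9 B cell markers the ranges were 7.02 to 7.83 and 6.94 to 7.25, with 8 negative and none called. They included Cd74, H2-Aa and H2-Ab1, which are not restricted to B cells and differed by -0.70, -0.60 and -0.61. Cd22, Cd79a, Ms4a1 and Cd79b differed by -0.63, -0.53, -0.50 and -0.47, Pax5 by -0.12 and Blk by 0.01. The defining markers Csf1r and Cd79a averaged 6.15 and 6.69 over all arrays, beside a median gene level of 6.34. These levels alone do not show how many such cells were present. Dendritic cell (6 of 6), neutrophil (4 of 4) and erythroid (2 of 2) markers were also negative and NK cell markers in 2 of 3, with none called. In a bulk sample, fewer cells of a type and less RNA per cell cannot be told apart. The 18 measured mitosis genes averaged 7.34 to 8.02 in WT and 8.19 to 8.49 in Tsc1-/-. Of these genes, 6 were called higher, against 0.971% of all genes. WT replicate 4 had macrophage and B cell levels inside the Tsc1-/- range and a mitosis level of 8.02, under the lowest Tsc1-/- array at 8.19. Its 27 subunits averaged 9.37, within the WT range and below the lowest Tsc1-/- array at 9.55. These are values of 1 array, and what other cells add to the subunits' differences was not tested with them.

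**Figure D4:**
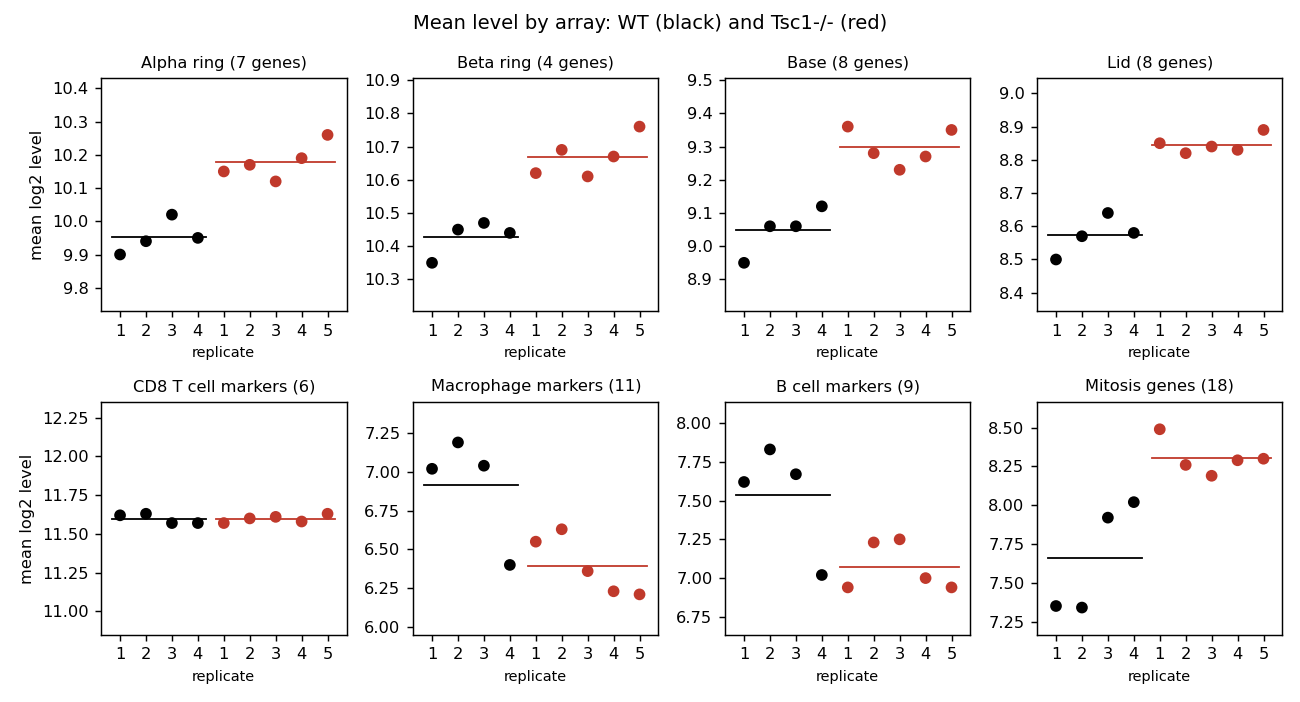
Mean log2 level (y axis) in each array (x axis: replicate number), for the 4 subcomplexes above and 4 marker lists below; black is WT, red is Tsc1-/-, lines are group means. In the alpha ring, beta ring, base and lid all Tsc1-/- arrays lie above all WT arrays. WT replicate 4 lies with the Tsc1-/- arrays in macrophage and B cell markers.

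With the macrophage level of each array in the fit, the median difference of the 27 subunits was 0.22 and 26 were positive. The B cell level gave 0.22 and 26, and the mitosis level 0.16 and 25. In these 3 fits limma called 0 of the 17097 genes, where 9.56%, 10.2% and 7.43% of genes had an unadjusted p under 0.05, and 12, 12 and 3 of the 27 subunits did. Removing each array's trend on mean level gave a median of 0.19 with 27 positive, and removing the trend on level and gene length 0.15 with 26 positive. Only WT replicate 4 had macrophage and B cell levels inside the Tsc1-/- range, and mitosis levels did not overlap between the genotypes. With 9 arrays, mitosis level and genotype can therefore hardly be told apart, and the part of these levels in the subunits' differences was not settled by these fits. The 2 trend removals also take away shifts that bright genes share.

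**Figure D5:**
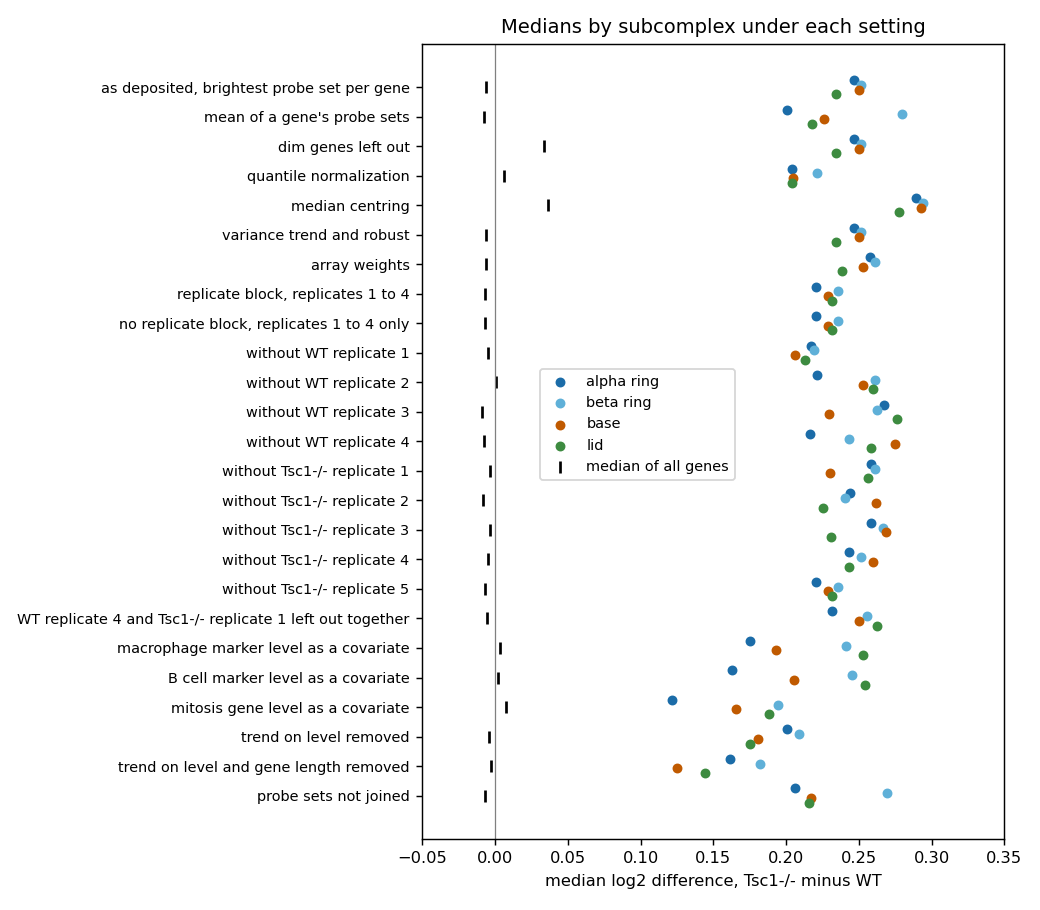
Median log2 difference (x axis) of the alpha ring, beta ring, base and lid under each processing setting (y axis), with the median of all genes tested as a black bar. All medians of the subcomplexes lie above 0, between 0.12 (alpha ring, mitosis level in the fit) and 0.29 (median centring).

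The 2 calls changed with the arrays included. Without any one of WT replicates 1 to 3 or of the 5 Tsc1-/- arrays, 0 of the members were called by limma, and 16 to 22 of the 27 subunits had an unadjusted p under 0.05. Calls of higher genes over the whole table also went from 166 to between 1 and 142 in these 8 fits, where 13.8% to 17% of all genes had an unadjusted p under 0.05. Without WT replicate 4, Psmd14 and Psmd6 were called, among 297 higher genes in all. All 27 differences stayed positive in each of these 9 fits, which in the 20 subunits with separate groups could not be otherwise.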

How the data were processed

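RNA of 9 samples (4 WT, 5 Tsc1-/-) was measured on 1 array each. The deposited values are log2 expression per probe set. The authors used RMA, and Partek 6.5 is listed as well, per the submitters' processing notes. RMA normalizes probes across arrays, which can hide changes common to most genes; the deposited array medians still ranged from 5.97 to 6.05. Of 45037 probe sets, 28898 had 1 gene, 551 several (not used; 2 held a member) and 15588 were unnamed. Symbols were updated through Entrez identifiers (28689 matched). The probe set with the highest mean stood for its gene. limma 3.58.1 under R 4.3.3 fitted genotype to each gene (lmFit, then eBayes), Benjamini-Hochberg adjusted over 17097 genes, after a test on simulated data. The number of arrays limits the precision. Promoters were searched and figures drawn in Python 3.11.15. The members, lists and motifs were chosen with earlier results of these data known. Values by array are given for members past the threshold and, in each class, for the 2 with the smallest and the 1 with the largest p. From the pathway lists, genes past the threshold or the 2 with the smallest p are named. Other catalytic subunits, Nfe2l1 and Psmc3ip were added after their values were seen. Alternatives varied the probe set, scaling, variance model, covariates and arrays included. Replicate numbers were not taken to pair the samples.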

Additional observations from a re-analysis of the deposited data

Results flagged for a closer look

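In 5 of 74 groups of arrays, 1 array stood apart from the others by Dixon's criterion, which chance meets in about 1 of 20 groups. WT replicate 1 read 8.61 for Psmc2, under the other WT arrays at 8.88 to 8.91, and 5.35 for the dim Psmb11, above the others at 5.08 to 5.12. WT replicate 3 read 8.97 for Psmc5, above the others at 8.77 to 8.78. Tsc1-/- replicate 3 read 10.96 for Psmb4, just under the others at 11.01 to 11.02. Tsc1-/- replicate 5 read 9.21 for Psmd13, above the others at 8.89 to 8.98.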

How the results depend on the processing

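No member and no other pathway gene was called lower in any of 25 alternatives, but the calls of higher members varied. Against 166 of 17097 genes called higher as deposited, members and other pathway genes called higher numbered 9 and 8 with dim genes left out (542 of 8549 genes in all), 11 and 8 with a variance trend and robust estimation (509), 5 and 5 with median centring (381), and 8 and 6 at an adjusted p under 0.1 (529). They numbered 3 and 4 with array weights (340), 2 and 3 with probe sets averaged per gene (174), 2 and 2 without both WT replicate 4 and Tsc1-/- replicate 1 (248), and 1 and 1 with probe sets not joined (174 of 28898). They were 0 and 1 with quantile normalization (58) or with the trend on level removed (41), 1 and 0 with the trend on level and length removed (49 of 16936), and 0 and 0 with the macrophage, B cell or mitosis level as a covariate (0). Without 1 array the range was 0 to 2 for both (1 to 297). Psma1 missed the threshold in 20 of 25 alternatives (difference 0.10 to 0.39, adjusted p 0.0124 to 0.678, limma) and Psmd14 in 15 of 25 (0.22 to 0.47, adjusted p 0.00708 to 0.747, limma). The cause was not tested. The 25 alternatives count the fit without Tsc1-/- replicate 5 under a further name as well, as replicates 1 to 4 only.

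The medians of the subcomplexes stayed above 0 in all alternatives that gave one. With median centring, which moved the median of all genes to 0.04, the lid median was 0.28. The alpha ring median was 0.17 with the macrophage level in the fit, and with the B cell level it was 0.16 and that of all members 0.18. With the mitosis level, which did not overlap between genotypes, the medians were 0.14 for all members, 0.12 for the alpha ring, 0.19 for the beta ring, 0.17 for the base and 0.19 for the lid. With the trend on level removed they were 0.19 for all members, 0.18 for the base and 0.18 for the lid. With the trend on level and length removed they were 0.15 for all members, 0.16 for the alpha ring, 0.18 for the beta ring, 0.13 for the base and 0.14 for the lid. Without 1 array the ranges were 0.21 to 0.25 for all members, 0.22 to 0.27 for the alpha ring, 0.22 to 0.27 for the beta ring, 0.21 to 0.27 for the base and 0.21 to 0.28 for the lid. Differences turned negative for Psma8 with the macrophage level (-0.069), for Psmc4 with the macrophage (-0.0078), B cell (-0.018) and mitosis level (-0.11), for Psmc3ip (-0.025) and Psmd3 (-0.023) with the mitosis level, and for Psma4 with the trend on level and length removed (-0.0022).

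Same-numbered WT and Tsc1-/- arrays deviated with correlations of -0.10 to 0.09 over 4 pairs, so the numbers were not taken to pair the samples. With the replicate number as a block, limma called 0 of 17097 genes, so 0 members and 0 other pathway genes. Without the block on the same 8 arrays, limma called 1 gene higher and 1 lower, again 0 members and 0 pathway genes. That fit was added after seeing the data and is the same as the one without Tsc1-/- replicate 5. At an unadjusted p under 0.05, 16 subunits were higher with the block (13.8% of all genes in either direction) and 17 without it (14.9%). Precision is limited by 9 arrays, and the dim Psma8 and Psmb11 lay well below the median gene level.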
